A study of Mus musculus with 12 samples.

Results

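The interferon-induced GTPases measured here are the products of 8 mouse genes, Igtp, Irgm1, Irgm2, Iigp1, Gbp2, Gbp3, Mx1 and Mx2. They were chosen by name, as the probe sets whose platform gene symbol is one of these. That gave 8 of the 8251 genes that the array's probe sets name singly, through 9 of its 12488 probe sets, 2 of them for Iigp1 and 1 for each other gene, and all 9 were among the 8695 probe sets tested. The 12 Affymetrix arrays held RNA of thymocytes from reaggregate thymic organ cultures (RTOC), in which thymocytes are grown together with thymic stroma, at day 6. There were 3 groups of 4 arrays, numbered 1 to 4 in each. HY_high held thymocytes with the HY T cell receptor and Smcy peptide at 1e-05 M, and HY_low held HY thymocytes with the peptide at 1e-07 M. OT1 held thymocytes with the OT1 receptor, for which the labels name no peptide. The HY receptor sees a peptide of the male-specific protein Smcy, and the OT1 receptor sees an ovalbumin peptide, both on class I molecules. In the comparisons with OT1 the receptor and the peptide changed together. The titles also mark HY_high and HY_low with different letters, aa and ab, that the labels do not explain, so the dose cannot be told apart from what these mark. Sex, strain and the source of the stroma are not stated in the labels, nor whether each array of a group stands for its own culture. The p-values therefore measure the spread between these arrays, which may be technical.

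Interferons act through cell surface receptors that switch on Jak kinases and, through them, transcription factors. Interferon gamma acts largely through GAS elements in DNA, while type I interferons act through a complex with Irf9 that binds ISRE elements. The GTPase genes are among the targets that rise most in many cell types. Igtp, Irgm1 and Irgm2 belong to the immunity-related GTPases (IRG) and are regulators that keep the effector IRG proteins, such as Iigp1, inactive on the cell's own membranes. Gbp2 and Gbp3 are guanylate-binding proteins, which gather with IRG proteins on the vacuoles of intracellular pathogens. Mx1 and Mx2 are dynamin-like GTPases that block viruses and answer mainly to type I and type III interferon. Thymic stroma is known to make interferon at rest.

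The windows before the start sites of 5 of the 8 genes, as RefSeq gives them for GRCm38.p6, are shown because interferon is known to act through elements of this kind. Mx1, Mx2 and Iigp1 are not shown and do not enter the counts of matches among the GTPase genes. Iigp1 was set aside before the members' windows were searched. Each line below gives the 120 bases before a start site, 5′ to 3′ on the strand of the gene. Capitals mark matches to an ISRE-like motif (GAAA, 2 bases of any kind, GAAA) or a GAS-like motif (TTC, 3 bases of any kind, GAA), searched on both strands.
Igtp, chr11:58199436-58199555, plus strand: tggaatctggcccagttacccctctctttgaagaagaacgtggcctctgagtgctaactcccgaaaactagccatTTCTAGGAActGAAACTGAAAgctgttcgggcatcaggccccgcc
Irgm2, chr11:58214857-58214976, plus strand: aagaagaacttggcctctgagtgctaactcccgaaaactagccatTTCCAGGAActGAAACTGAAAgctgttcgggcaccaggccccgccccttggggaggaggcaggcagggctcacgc
Irgm1, chr11:48871421-48871540, minus strand: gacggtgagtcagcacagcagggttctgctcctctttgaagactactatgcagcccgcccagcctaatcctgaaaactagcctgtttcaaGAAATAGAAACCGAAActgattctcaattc
Gbp2, chr3:142620543-142620662, plus strand: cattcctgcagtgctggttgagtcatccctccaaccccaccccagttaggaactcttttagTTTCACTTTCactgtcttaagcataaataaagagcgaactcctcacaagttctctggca
Gbp3, chr3:142559924-142560043, plus strand: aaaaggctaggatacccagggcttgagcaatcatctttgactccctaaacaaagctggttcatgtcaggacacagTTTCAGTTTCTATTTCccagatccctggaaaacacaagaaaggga

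In the full windows of 300 bases, which run 50 bases past the start, all 5 genes shown had an ISRE-like match. Of 32851 RefSeq windows 3.44% did, a share counted by window and not by gene, where the 5 genes have 6 windows. Igtp and Irgm2 also had a GAS-like match, which 8.30% of the windows had. In Igtp the GAS-like match ran from -45 to -37 and the ISRE-like match from -34 to -25 relative to the start, and in Irgm2 the same arrangement lay at -75 to -67 and -64 to -55. The windows of these neighbours are near copies, with 61 bases identical in 1 stretch and 85.9% of 184 bases identical when aligned on the ISRE-like match. Irgm1 and Gbp3 each had 2 ISRE-like matches that overlap one another, and no ISRE-like match overlapped a GAS-like one. A second annotated start of Gbp3 had no match to either motif in its window. Gbp2 had 1 ISRE-like match, as did Igtp and Irgm2. A match is a run of letters in the reference and was not measured as a binding site here.

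**Figure D1:**
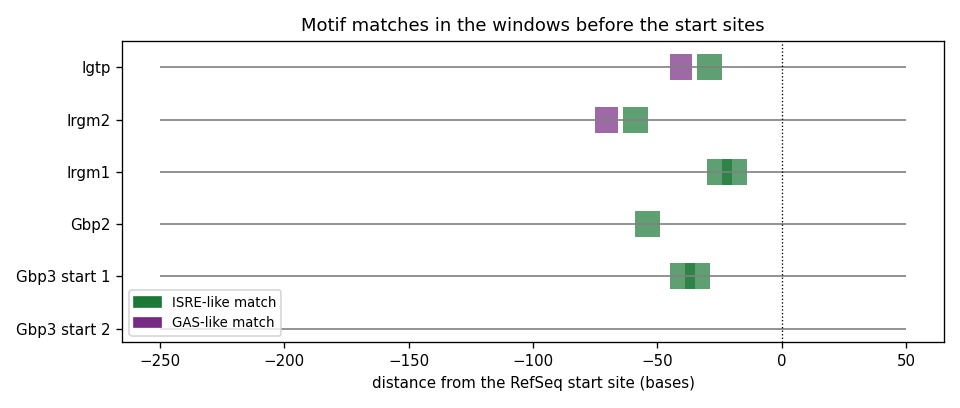
Positions of ISRE-like (green) and GAS-like (purple) matches in bases from the RefSeq start site (dotted line at 0), in windows of 300 bases for 6 start sites of 5 GTPase genes. The matches lie between -75 and -15, and darker parts are overlaps of 2 ISRE-like matches.

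All 8 genes had their highest geometric mean intensity in HY_high, the next in HY_low and the lowest in OT1. So did all 9 probe sets, against 18.7% of the tested probe sets with this order. Each of the 9 differences was above 0 in each comparison, as were 51.4% of all tested for HY_high against OT1, 51.0% for HY_low against OT1 and 51.3% for HY_high against HY_low. Over the 8 genes the median log2 difference was 1.44 between HY_high and OT1, 1.03 between HY_low and OT1 and 0.59 between HY_high and HY_low. Over all tested probe sets the medians were 0.02, 0.01 and 0.01. The comparisons share arrays, so the first of these medians is not independent of the other two. Intensities are linear, as the authors deposited them, with a lowest value of 1, and 66.4% of the values of probe sets other than controls lay under 8. In bulk RNA a lower share of a cell type and less RNA per cell cannot be told apart, which touches every difference given here.

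A probe set passed when its adjusted p in a limma fit over the 12 arrays was under 0.05. None of the 9 passed in any of the 3 comparisons. In HY_high against OT1 0.173% of the 8695 probe sets passed, and in HY_high against HY_low and HY_low against OT1 0.023% did. At an unadjusted p under 0.05, 8 of the 9 were higher in HY_high than in OT1, where the share over all tested probe sets was 2.82%. This number was 3 of 9 for HY_low against OT1 (1.55% of all) and 2 of 9 for HY_high against HY_low (1.90% of all). Arrays with the same number varied together across the groups. With the number as a block in the fit, 3 of the 9, for Iigp1, Igtp and Gbp3, passed as higher in HY_high than in OT1. With the block 1.13% of all tested probe sets passed as higher in that comparison. In the other 2 comparisons 0 of the 9 passed with the block, where 0.23% (HY_high against HY_low) and 0.0805% (HY_low against OT1) of all passed as higher.

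**Figure D2:**
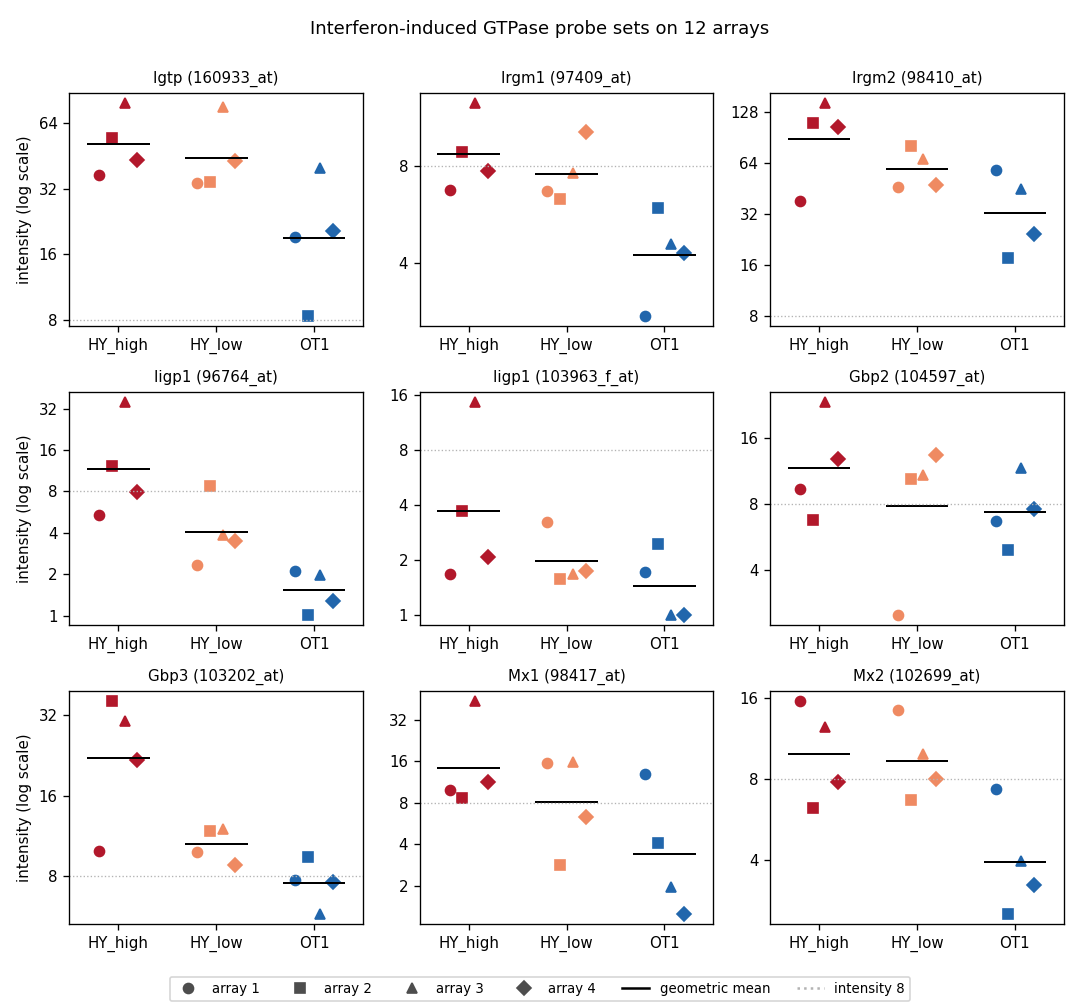
Intensity of each of the 9 GTPase probe sets on the 12 arrays, on a log2-spaced axis, with a marker for each array number, black lines for the geometric means of 4 arrays and a dotted line at 8. HY_high array 3 holds the highest of the 12 values for 7 of the 9 probe sets, and OT1 array 2 the lowest for 4.

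Igtp, a regulatory IRG protein that is also called Irgm3, was above 8 on all 12 arrays. Its intensity was 36.97, 54.64, 79.07 and 43.29 on HY_high arrays 1 to 4, 34.11, 34.37, 75.74 and 42.73 on HY_low arrays, and 19.23, 8.37, 39.90 and 20.46 on OT1 arrays. In both HY groups 3 of the 4 arrays lay between 34 and 55 and array 3 stood higher, and in OT1 array 3 overlapped the HY groups while the rest lay below them. The HY_high minus OT1 difference was 1.43 ± 0.48 on the log2 scale (SE, n = 4 per group), 2.69-fold higher, with a limma adjusted p of 0.694 (0.0134 with the block). It was higher within 4 of 4 numbers. That call was lost without HY_high array 2 (adjusted p = 0.0831) and held without any other of the 12 arrays. With the 3 arrays of 1 number left out it held in 1 of 4 fits, and was lost without number 2, 3 or 4 (adjusted p up to 0.0718). With intensities under 8 set to 8 the difference stayed 1.43, while the block adjusted p was 0.0966. Without OT1 array 2 the difference was 1.03. HY_low was above OT1 by 1.21 ± 0.48 without passing (adjusted p = 1 without the block, 0.167 with it), again within 4 of 4 numbers. HY_high and HY_low differed by 0.22 ± 0.48, less than the spread within either group.

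Irgm2, the neighbour of Igtp on chromosome 11 with 0 protein-coding genes between them, is a further regulatory IRG protein. Its HY_high arrays read 38.17, 110.46, 144.79 and 103.95, the HY_low arrays 46.07, 80.58, 67.45 and 47.27, and the OT1 arrays 57.93, 17.51, 45.16 and 24.45. Arrays 2, 3 and 4 of HY_high lay above every HY_low and OT1 array, whereas HY_high array 1 lay below OT1 array 1. The HY_high minus OT1 difference was 1.46 ± 0.49, not past the threshold (adjusted p = 0.694, and 0.0754 once the block was added). Within numbers 1 to 4 it was -0.60, 2.66, 1.68 and 2.09. With the block it passed in 2 of the 12 fits that left out 1 array, those without HY_high array 1 and without OT1 array 1 (lowest adjusted p 0.00365). HY_low was 0.85 ± 0.49 above OT1, and HY_high 0.61 ± 0.49 above HY_low, and neither passed with or without the block.

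Irgm1, the third regulatory member, which is also needed in mice for the survival of activated T cells, was dim. It read 6.74, 8.80, 12.49 and 7.71 in HY_high, 6.66, 6.31, 7.58 and 10.19 in HY_low, and 2.75, 5.92, 4.58 and 4.28 in OT1. Every HY array of either dose lay above every OT1 array, while the 2 HY groups overlapped. Such a separation of HY_high above OT1 was seen for 3 of the 9 GTPase probe sets, Irgm1, Iigp1 and Gbp3, and 1.52% of all tested. For HY_low above OT1 it was seen for 2, Irgm1 and Iigp1, and 0.886% of all, and for HY_high above HY_low for 0 of 9 and 1.24% of all. The Irgm1 differences were 1.04 ± 0.42 for HY_high and 0.84 ± 0.42 for HY_low against OT1 (adjusted p = 1 for both, or 0.221 and 0.529 with the block). With intensities under 8 set to 8 they were 0.20 and 0.09, since most of the arrays lay under 8.

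Iigp1, the effector IRG protein Irga6, had the largest log2 difference of the 8 genes between HY_high and OT1 on the deposited values, a rank that it lost when intensities under 8 were set to 8 (0.69, against 1.46 for Irgm2, 1.43 for Igtp and 1.41 for Gbp3). On its brighter probe set it read 5.39, 12.30, 35.56 and 7.86 in HY_high, 2.33, 8.72, 3.89 and 3.49 in HY_low, and 2.13, 1.02, 1.97 and 1.29 in OT1. OT1 lay near the lowest value of the table on all 4 arrays, HY_high was led by array 3, and HY_low array 2 stood among the HY_high values. The HY_high minus OT1 difference was 2.93 ± 0.59 (SE), a 7.61-fold ratio, higher within 4 of 4 numbers. Its limma adjusted p was 0.0586 without the block and 0.00624 with it. With the block the call held without any 1 of the 12 arrays, with adjusted p up to 0.0477, and was lost without the 3 arrays numbered 3 (0.0728). Of its 12 values 3 exceeded 8, and with lower intensities set to 8 it did not pass (adjusted p = 1, or 0.481 with the block). HY_low stood 1.41 ± 0.59 above OT1 and HY_high 1.52 ± 0.59 above HY_low, neither past the threshold (block adjusted p of 0.425 and 0.301). The dimmer probe set of Iigp1, of a type that can read several related transcripts, differed between HY_high and OT1 by 1.37 ± 0.60 without passing. It rested on HY_high array 3, which read 14.61 where the other 11 arrays read 1 to 3.69. Without that array its difference was 0.71.

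Gbp3, a guanylate-binding protein, read highest in HY_high, and its groups HY_low and OT1 lay close together. The HY_high arrays read 9.94, 36.15, 30.51 and 21.78, the HY_low arrays 9.84, 11.77, 12.03 and 8.78, and the OT1 arrays 7.74, 9.40, 5.77 and 7.56. Arrays 2 to 4 of HY_high lay well above both other groups, and array 1 lay within the HY_low range. HY_high minus OT1 was 1.56 ± 0.45 (2.95-fold), with a limma adjusted p of 0.415 that was 0.0305 with the block. With intensities under 8 set to 8 it was 1.41 (block adjusted p = 0.0966). The block call held in 5 of 12 fits that left out 1 array and in 1 of 4 that left out a number. It was lost without any of HY_high arrays 2, 3 and 4, HY_low array 3 and OT1 arrays 2, 3 and 4, with adjusted p up to 0.196. HY_high minus HY_low was 1.07 ± 0.45 (adjusted p = 1, and 0.262 in the block fit), with 0.01, 1.62, 1.34 and 1.31 within the numbers. HY_low minus OT1 was 0.49 ± 0.45.

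Gbp2, the other guanylate-binding protein, read 9.35, 6.74, 23.16 and 12.83 in HY_high, 2.52, 10.36, 10.88 and 13.37 in HY_low, and 6.72, 4.94, 11.61 and 7.56 in OT1. The 3 groups overlapped, with HY_low array 1 the lowest of the 12 and HY_high array 3 the highest. Its differences from OT1 were 0.67 ± 0.56 in HY_high and 0.10 ± 0.56 in HY_low, with adjusted p of 1 for both. With intensities under 8 set to 8 they were 0.48 and 0.26. In the annotation Gbp2 and Gbp3 lie on chromosome 3 with 1 protein-coding gene between them.

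Mx1 and Mx2 are annotated as transcribed pseudogenes in the GRCm38 assembly, which comes from C57BL/6J, a strain whose Mx genes carry disabling mutations. The strain of these cells is not stated. Mx1 read 9.88, 8.64, 43.66 and 11.39 in HY_high, 15.53, 2.82, 15.86 and 6.36 in HY_low, and 12.95, 4.09, 1.97 and 1.26 in OT1. OT1 array 1 lay above 3 of the 4 HY_high arrays and the other OT1 arrays lay below all of them. HY_high stood above OT1 by 2.08 ± 0.74 without passing (adjusted p = 0.793, block adjusted p = 0.117), with -0.39, 1.08, 4.47 and 3.18 within the numbers. Without HY_high array 3 the difference was 1.55, and with intensities under 8 set to 8 it was 0.67.

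Mx2 was steadier. Its intensities were 15.50, 6.27, 12.50 and 7.82 in HY_high, 14.43, 6.70, 9.90 and 7.99 in HY_low, and 7.33, 2.54, 3.99 and 3.24 in OT1. Same-numbered HY_high and HY_low arrays were nearly alike, and each lay above its OT1 partner. The differences from OT1 within numbers 1 to 4 were 1.08, 1.30, 1.65 and 1.27 for HY_high and 0.98, 1.40, 1.31 and 1.30 for HY_low. Neither passed (1.33 ± 0.48, adjusted p = 0.805, or 0.0574 with the block, for HY_high, and 1.25 ± 0.48, adjusted p = 1, or 0.207, for HY_low). Between the HY groups Mx2 differed by 0.08 ± 0.48. With intensities under 8 set to 8 the differences from OT1 were 0.40 and 0.29.

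**Figure D3:**
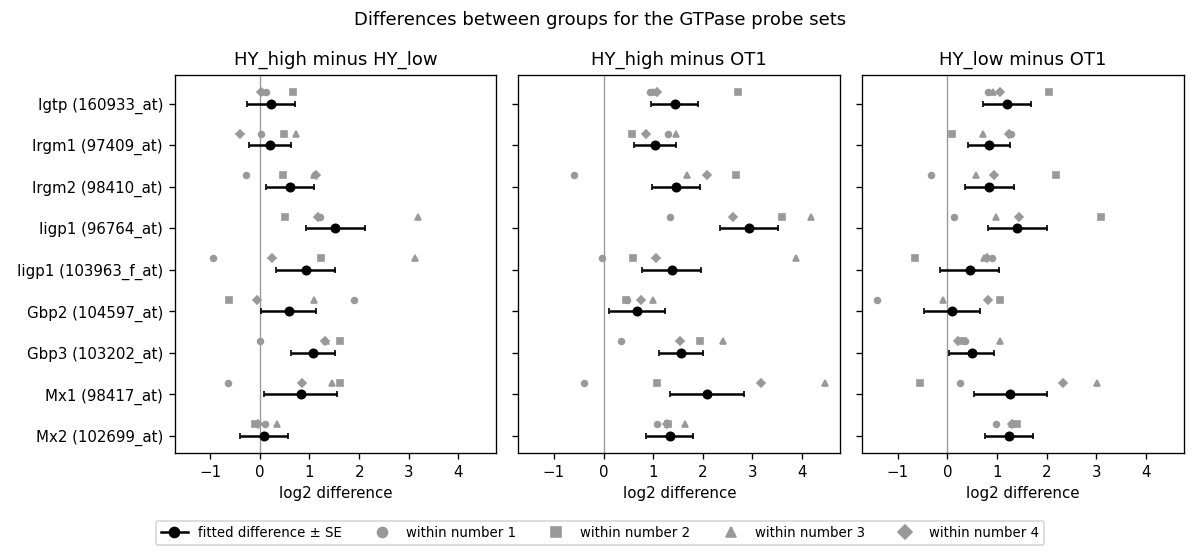
Log2 differences of the 9 probe sets in the 3 comparisons, as fitted values with standard errors (black, n = 4 arrays per group) and within each array number (grey, drawn just above). All 9 fitted differences between HY_high and OT1 lie above 0, from 0.67 for Gbp2 to 2.93 for Iigp1, and those between HY_high and HY_low run from 0.08 for Mx2 to 1.52 for Iigp1.

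Between the HY groups the log2 differences of the 8 genes ranged from Mx2, Irgm1 and Igtp, at 0.08, 0.20 and 0.22, to Gbp3 and Iigp1, at 1.07 and 1.52. Of the 8, 3 (Igtp, Iigp1 and Gbp3) were higher in HY_high within 4 of 4 numbers, where 9.81% of all tested probe sets were. For HY_high against OT1 this held for 6 of the 8 genes (10.4% of all tested) and for HY_low against OT1 for 5 (9.73%). The difference between the HY groups rested in part on HY_high array 3. Without it the median over the 8 genes was 0.26 between HY_high and HY_low, with 7 of the 8 above 0. It was 0.38 in the block fit without that array, and 0.42 without all arrays numbered 3. Between HY_high and OT1 the median was 1.22 without HY_high array 3, with all 8 above 0. Without OT1 array 2 the median between HY_high and OT1 was 1.18 and that between HY_low and OT1 was 0.91.

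A mean profile of the 8 genes was taken over the 12 arrays, each gene centred and divided by its SD, with the brighter probe set for Iigp1. It read 0.16, 0.63, 1.58 and 0.59 SD on HY_high arrays 1 to 4, -0.18, 0.05, 0.45 and 0.15 on HY_low arrays, and -0.54, -1.20, -0.60 and -1.07 on OT1 arrays. Within each of the 4 numbers HY_high was highest and OT1 lowest. Each HY array lay above each OT1 array, and HY_high and HY_low overlapped. Between pairs of the 8 genes the correlation over 12 arrays was above 0 in 28 of 28 pairs, with a median r of 0.569 and a range from 0.123 to 0.892. After centring on the groups and on the numbers it was above 0 in 21 of 28, with a median of 0.283. These are descriptions of arrays that share groups and numbers.

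**Figure D4:**
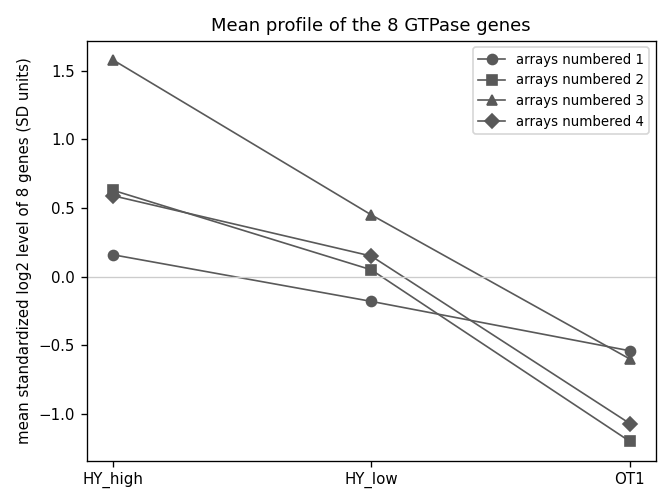
Mean standardized log2 level of the 8 GTPase genes (in SD units) in HY_high, HY_low and OT1, with a line for each array number. All 4 lines fall from left to right, and number 3 has the highest value in HY_high, at 1.58, and number 1 the smallest range.

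Among 7709 other tested probe sets with 1 gene, the 10 whose profile was most like that of the GTPases over the 12 arrays belonged to Aak1, Ifi27l2a, Ttc39b, Ifih1, Ifit1, Hccs, Psen2, Trbv13-2, Oas1g and Slc25a53, with r from 0.913 to 0.822. Of these 10, 4 (Ifi27l2a, Ifih1, Ifit1 and Oas1g) are on the lists of interferon pathway genes, which hold 0.662% of the 7709. After centring on the groups and on the numbers, 1 of the 10 most alike was a pathway gene, Ifit3 (r = 0.944), and the first 3 were Capn6, Pim1 and Rac1. Trbv13-2 is a T cell receptor segment that differs between the transgenes, so that likeness over these arrays includes any difference between the groups. Oas1g, Ttc39b and Hccs had geometric means under 3 in all groups.

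The other genes of the pathway were looked at by role, each through its brighter tested probe set. Of 43 such genes 0 passed in any of the 3 comparisons with limma. The 43 include the relatives Ifi47, Gbp7, Dnm1 and Dnm2, which also enter the medians below. Interferon is not known to induce Dnm1 or Dnm2. At an unadjusted p under 0.05, 15 were higher and 0 lower in HY_high than in OT1, where 2.82% of all tested were higher. In HY_low against OT1 6 were higher and 2, Ifna4 and Dnm1, lower, where 1.55% of all were higher. In HY_high against HY_low 0 were higher and 1 lower, where 1.9% of all were higher. In either direction 355, 230 and 257 of the 8695 probe sets met this p in these comparisons, in that order. With the block 8 passed as higher in HY_high against OT1, 0 in HY_low against OT1 and 1, Socs3, as lower in HY_high against HY_low. Of all tested probe sets 1.13%, 0.0805% and 0.23% passed as higher with the block in these comparisons, in that order. In HY_high against HY_low 30 of the 8695 passed with the block in either direction. The median log2 difference of the 43 was 0.63 for HY_high against OT1, 0.56 for HY_low against OT1 and 0.35 for HY_high against HY_low.

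Ligand genes were dim. The probe set of Ifna5, a type I interferon gene with near-identical copies, read 4.76 to 9.07 in HY_high, 7.26 to 11.37 in HY_low and 4.09 to 7.13 in OT1. Ifng, which encodes interferon gamma, was under 8 on all arrays and at 1 on 5 of the 12, and reached 3.63 at most, on HY_high array 3. Ifnb1 reached 5.34 at most, on OT1 array 1. Neither was bright enough to be tested, and of the 3 tested ligand genes 0 passed with or without the block, with 1 lower in HY_low than in OT1 at an unadjusted p under 0.05. Of 6 tested receptor and kinase genes 0 passed with either fit, and 1 was higher in HY_high than in OT1 at an unadjusted p under 0.05. Jak2, a kinase of the interferon gamma receptor, was 1.04 ± 0.47 higher in HY_high than in OT1, without passing (0.0754 in the block fit). Ifngr1, the ligand-binding chain for interferon gamma, had geometric means of 22.6 in HY_high, 12.7 in HY_low and 14.8 in OT1, and passed in no comparison.

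Of the 4 tested transcription factor genes 1 passed with the block. Irf9, a DNA-binding factor of the type I interferon response, read 109.24, 132.08, 136.29 and 87.04 in HY_high, 111.62, 94.13, 154.82 and 67.87 in HY_low, and 80.25, 28.65, 95.14 and 26.34 in OT1. It was higher in HY_high than in OT1 within 4 of 4 numbers, by 1.22 ± 0.47, and passed with the block (0.0275) but not without it (0.942). In HY_low the log2 level was 1.07 above OT1, without passing (block adjusted p 0.201). Irf8 and Irf7 differed between HY_high and OT1 by 1.10 and 1.35, and Irf1, a factor that interferon gamma raises early, by 0.47 ± 0.44, all without passing.

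Of 5 tested brakes on the pathway Usp18 passed with the block in HY_high against OT1 and Socs3 in HY_high against HY_low. Usp18, which removes Isg15 from proteins and damps the type I receptor, had geometric means of 90.6 in HY_high, 51.4 in HY_low and 9.37 in OT1. HY_high exceeded OT1 by 3.27 ± 0.77 on the log2 scale, and its adjusted p was 0.187, and 0.00145 in the block fit. Socs3, a feedback inhibitor mainly of gp130 cytokine receptors, had geometric means of 21.7 in HY_high, 78.9 in HY_low and 29.9 in OT1. Its HY_high minus HY_low log2 difference was -1.86 ± 0.41, with a limma adjusted p of 0.251, and 0.00689 in the block fit. From OT1 it differed by 1.40 ± 0.41 in HY_low (block adjusted p = 0.0853) and by -0.46 ± 0.41 in HY_high, without passing. Socs1, the feedback inhibitor of interferon gamma signalling, differed by 0.17 between HY_high and OT1 and by -0.48 between HY_low and OT1, without passing.

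Among the other targets 20 of 21 tested genes lay above 0 in HY_high against OT1, with a median of 1.13, and 6 passed with the block. These were Trim30a, Ifih1, Ifi204, Isg15, Ifi27l2a and Ifit1, with log2 differences of 2.24, 2.09, 1.54, 2.26, 1.62 and 2.43 in that order. With intensities under 8 set to 8 they were 1.28, 1.59, 1.42, 1.86, 1.49 and 1.26. Isg15, Ifi27l2a and Ifit1 were higher within 3 of 4 numbers and the others within 4 of 4. The probe set of Ifi204 is of a type that can read several related transcripts. Ifih1 encodes the RNA sensor Mda5, and Ifit1 binds foreign RNA. In HY_low against OT1 21 of 21 lay above 0 (median 0.65), and in HY_high against HY_low 15 of 21 did (median 0.37), and 0 passed in either, with or without the block, with 3 and 0 higher at an unadjusted p under 0.05.

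None of the tested relatives of the 8 genes passed in the limma fit. Ifi47, an IRG effector, read 14.77, 46.82, 121.19 and 110.63 in HY_high, 15.95, 34.52, 57.48 and 48.13 in HY_low, and 13.96, 133.15, 71.27 and 58.65 in OT1. The 3 groups overlapped throughout, and HY_high minus OT1 was 0.06 ± 0.72 and HY_low minus OT1 was -0.59 ± 0.72. Gbp7 differed by 0.28 ± 0.87 in that comparison, and had a low value of 2.59 on HY_high array 1. A probe set shared by the near-identical genes Tgtp1 and Tgtp2 differed by 0.63 (adjusted p = 1). Gbp2b was under 8 on all 12 arrays and was not tested. A probe set shared by Gbp8 and Gbp4, under 8 on all arrays, differed from OT1 by 0.11 in HY_high and -0.59 in HY_low. The remaining tested relatives, Dnm1 and Dnm2, are dynamins that interferon is not known to induce, and neither passed. Dnm1 was lower in HY_low than in OT1 within 4 of 4 numbers, at -1.20 ± 0.48.

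**Figure D5:**
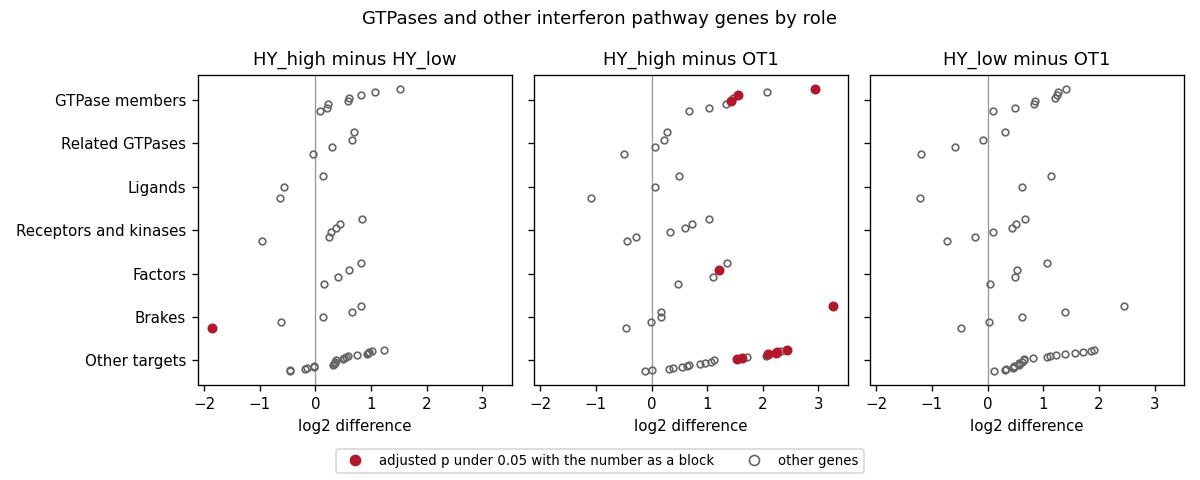
Log2 differences of the 8 GTPase genes and of 43 other pathway genes by role in the 3 comparisons, a point per gene. Filled points mark an adjusted p under 0.05 with the array number as a block, which 3 GTPase genes and 8 other genes reached as higher in HY_high than in OT1, and Socs3 as lower in HY_high than in HY_low.

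The arrays were also read for markers of T cells and of other cells. Of 11 T cell markers on the array 7, Cd3d, Cd3e, Cd3g and Thy1 among them, were above 8 on all arrays. The summed intensity of the 11 was 757 to 1360 on HY_high, 1630 to 3460 on HY_low and 1790 to 2990 on OT1 arrays. HY_high did not overlap the other groups, a separation that depended on the CD8 chains Cd8a and Cd8b1. These read 1084.1 and 698.11 of 2610 on HY_low array 2, and 194.26 and 1 of 757 on HY_high array 2. On HY_low array 1 they were a smaller part, at 108.93 and 172.26 of 1630. Cd8a had geometric means of 157 in HY_high, 339 in HY_low and 340 in OT1, without passing. Cd8b1, the beta chain of the CD8 coreceptor, had geometric means of 4.52 in HY_high, 644 in HY_low and 693 in OT1, and was lower in HY_high also without the block (limma adjusted p = 0.000252 against HY_low and 6.8e-05 against OT1). Thy1 was 234 in HY_high, 555 in HY_low and 541 in OT1, lower in HY_high with the block (0.0126 against HY_low and 0.00564 against OT1) though not without it. Cd2 was 95.5 in HY_high, 203 in HY_low and 197 in OT1. With the block Cd2 passed as lower in HY_high than in OT1 (0.0402) but not against HY_low (0.0726), and without the block in neither. The Cd3 chains Cd3d, Cd3e and Cd3g had log2 differences of 0.17, 0.21 and 0.33 between HY_high and OT1 and -0.04, -0.25 and -0.24 between HY_high and HY_low, without passing. The summed intensity of 16 macrophage and dendritic cell markers was 164 to 597 on HY_high, 164 to 635 on HY_low and 131 to 334 on OT1 arrays. Ctss, a cathepsin of antigen-presenting cells, made up most of the sum on the highest arrays, with 528.17 of 597 on HY_high array 2 and 583.14 of 635 on HY_low array 2, and was higher in HY_high than in OT1 with the block (296 against 148, adjusted p = 0.0275), though not without it. Of the 16, 9 were under 8 on all arrays, and 0 were at 1 on all. Lyz2 was at 1 to 3.73 in HY_high, 1.83 to 13.21 in HY_low and 1 to 1.75 in OT1, and Csf1r read 3.47 to 3.94 in HY_high, 4.48 to 11.34 in HY_low and 3.95 to 5.52 in OT1. Apoe read 1 to 3.33 in HY_high, 1.63 to 18.52 in HY_low and 1.02 to 1.82 in OT1, without passing. Of 12 tested, 9 lay above 0 in HY_high against OT1, 9 in HY_low against OT1 and 6 in HY_high against HY_low. In HY_low against OT1 Cd14, Fcgr3 and Itgax lay below 0, at -0.48, -0.41 and -0.05. For 8 B cell markers, 4 of them under 8 on all arrays, the sum was 36.6 to 193 in HY_high, 25.9 to 50 in HY_low and 24.9 to 65.8 in OT1, with the 193 on HY_high array 3. Blk read 152.58 and Cd79b 25.45 there, where Cd79a read 1.06, Ms4a1 5.37, Pax5 4.65, Cr2 1.55, and Cd22 and Blnk 1. Cd79b had geometric means of 22.3 in HY_high, 12.9 in HY_low and 11.4 in OT1, without passing. Sums of 14 stromal markers were 65.8 to 98.8, 73.6 to 102 and 67.8 to 116 in these groups, and those of 3 NK cell markers, all under 8, were 5.88 to 13.4, 5.19 to 11.9 and 5.28 to 9.24. Class II and invariant chain genes summed to 63.1 to 169 in HY_high, 49.7 to 180 in HY_low and 66.0 to 107 in OT1, double-positive thymocyte markers to 21.7 to 39.9, 31.2 to 65.6 and 29.5 to 50.6, and erythroid markers to 5.54 to 14.2, 4.48 to 17.6 and 4.89 to 12.6. The part of these cells and of the lower T cell sum in the GTPase differences was not tested. Shares of values at 1 also differed, at 3% on HY_high array 2, 5.17% on HY_low array 2 and 19.0% on OT1 array 2, and their part in the differences of dim probe sets was not tested.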

How the data were processed

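The deposited table holds intensities on a linear scale, 1 column for each of 12 arrays. The sources used here do not give how the authors corrected, summarised and scaled them, and array medians of 3.33 to 3.97 were left as deposited. The 66 control probe sets were left out, and values were put on a log2 scale. The 8695 probe sets whose mean log2 value lay above the 30th percentile (an intensity of 1.764) were tested. Genes came from the platform annotation, updated by gene ID, and a gene with several probe sets was read from the brighter one in medians and lists. One limma 3.58.1 fit (R 4.3.3) held a mean per group, with moderated variances and a mean-variance trend. P-values are two-sided and were adjusted by Benjamini and Hochberg's method across the 8695, with a threshold of 0.05. Arrays of different groups were taken as paired by their number in the titles, because 12 of 12 same-number pairs from different groups had deviations from the group means that correlated at 0.341 or more (other pairs reached 0.163). The labels do not state this. The fit with the number as a block is an alternative. The script was tested on simulated data. Named were all probe sets of the 8 genes, and pathway genes that passed or had the smallest p of their list. The genes and lists were chosen with earlier results of these data known. The number of arrays limits the precision.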

Additional observations from a re-analysis of the deposited data

Results flagged for a closer look

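Among 27 sets of 4 arrays (9 probe sets in 3 groups), 3 held an array far from the other 3, by Dixon's 95% criterion. Chance gives about 1 in 20. Mx1 read 43.66 on HY_high array 3, where the other HY_high arrays read 8.64 to 11.39. Gbp2 read 2.52 on HY_low array 1, where the others read 10.36 to 13.37. The dimmer Iigp1 probe set read 3.23 on HY_low array 1, where the others read 1.56 to 1.74, all near the lowest value of the table.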

How the results depend on the processing

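The comparison of HY_high with OT1 kept its direction for 9 of 9 probe sets under all alternatives, but calls depended on the fit. Of the 9, 0 passed in the reported fit, 3 with the replicate block, 3 with it as a random effect, 4 with array weights and 1 without the variance trend, and 0 to 5 when arrays or numbers were left out, with or without the block. Of all 8695 probe sets 92 passed with the random effect, 64 with array weights and 16 without the trend, and with arrays or numbers left out 3 to 17 did without the block and 43 to 135 with it. With intensities under 8 set to 8, no GTPase passed with or without the block. Of all 6208 probe sets tested in that setting 0.129% passed in HY_high against OT1 without the block and 0.419% with it. The median over the 8 genes there was 0.68 for HY_high and 0.30 for HY_low against OT1, with or without the block. A pseudocount of 16 gave 0.68 and 0.26. With intensities under 8 set to 8, Igtp and Irgm2, whose values all lay above 8, kept their differences. The Igtp block call was lost in that setting at an unchanged 1.43. In the other 2 comparisons 0 GTPase probe sets passed under any of 44 alternatives. Few of all tested probe sets did, 0 to 47 in HY_high against HY_low and 2 to 21 in HY_low against OT1. The direction of the GTPase probe sets in these 2 comparisons turned only when arrays were left out. Gbp2 in HY_low against OT1 ran from -0.27 to 0.64, with -0.23 without number 2 and -0.15 without number 4 (block or not), and with the block -0.13 without HY_low array 4, -0.03 without OT1 array 2 and -0.04 without OT1 array 4. The ranges were -0.01 to 0.82 for the dimmer Iigp1 probe set in HY_low against OT1, and -0.14 to 0.30 for Mx2 (-0.02 with the block and without HY_high array 3) and -0.07 to 0.48 for Igtp in HY_high against HY_low. Of the 43 other pathway genes 8 passed with the replicate block in HY_high against OT1, 7 with it as a random effect and 6 with array weights, and 0 to 13 with arrays left out (10 with the block and without number 1 or HY_high array 1, 13 without OT1 array 1). In HY_high against HY_low 1 passed with the block, fixed or random, and 0 to 1 with arrays left out. For HY_low against OT1 0 to 5 passed with arrays left out. Of all 8695 probe sets 1 to 47 passed in HY_high against HY_low and 2 to 21 in HY_low against OT1 in such fits. Over all 8695 probe sets the replicate block raised the count of calls to 118, against 15, in HY_high against OT1, to 30, against 2, in HY_high against HY_low and to 8, against 2, in HY_low against OT1. Fits with the block and arrays left out were chosen after seeing the data. The cause of these changes was not tested.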

Other observations

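On OT1 array 1 several interferon targets outside the GTPase genes stood far above the other OT1 arrays. These genes were chosen after their values were seen. Isg15, a ubiquitin-like modifier, read 137.95, 62.03, 73.52 and 30.56 on HY_high arrays 1 to 4, 160.3, 63.1, 49 and 14.62 on HY_low arrays, and 146.82, 3.14, 11.82 and 6.66 on OT1 arrays. Ifit3, a partner of Ifit1, read 22.16, 51.25, 80.31 and 15.02 in HY_high, 35.18, 31.35, 21.18 and 7.30 in HY_low, and 68.54, 3.48, 4.09 and 2.20 in OT1. Irf7, the factor that amplifies type I interferon, read 80.41, 19.07, 27.11 and 13.23 in HY_high, 67.86, 2.39, 22.09 and 16.14 in HY_low, and 74.09, 2.67, 9.47 and 7.04 in OT1. For Isg15 and Irf7 the arrays numbered 1 were the highest of their group in all 3 groups. Among the GTPases Mx1 and Irgm2 were higher in OT1 than in HY_high within number 1 only, and Igtp, Irgm1 and Mx2 were not. The median over the 8 GTPase genes between HY_high and OT1 was 0.71 within number 1, and 1.62, 1.66 and 1.40 within numbers 2, 3 and 4. The corresponding medians over the 43 other pathway genes were 0.12, 1.29, 0.77 and 0.65.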
